A study of Homo sapiens with 21 samples.

Results

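The genes described here are 37 that encode the core machinery of autophagy and the transcription factors TFEB, TFE3 and MITF. They were taken by gene symbol and known role from the 34021 genes of an expression table of H1975 cells, and all 37 symbols were found there. The set holds 5 genes of the ULK1 initiation complex, 6 of the class III phosphatidylinositol 3-kinase (PI3K) complexes and their regulators, 7 of lipid supply and of binding to the lipid product PI3P, 7 conjugation enzymes, 4 ATG4 proteases, 5 genes of the LC3 and GABARAP family and the 3 transcription factors.

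Macroautophagy wraps part of the cytoplasm in a double membrane, the autophagosome, and delivers it to the lysosome. The ULK1 kinase complex starts the process, a PI3K complex marks the site with PI3P, ATG9 vesicles and ATG2 proteins bring membrane and lipid, and ubiquitin-like conjugation attaches LC3 and GABARAP proteins to the growing membrane. TFEB, TFE3 and MITF belong to the MiT/TFE family, whose members are held in the cytoplasm when mTORC1 is active and which otherwise drive autophagy and lysosome genes through short E-box-like elements. In lung cancer cells with mutant EGFR, autophagy is known as a response to inhibition of the receptor.

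H1975 is a cell line from a lung adenocarcinoma with mutant EGFR, and 9 of the 21 samples in the series are RNA-seq libraries of it, 3 in each of 3 groups cultured for 8 days. The group Osi_cIGF1R had 500 nM osimertinib, which inhibits mutant EGFR, and overexpression of cIGF1R, a circular RNA of the IGF1R gene. The group Osi_Lin_EV had 500 nM osimertinib, 500 nM linsitinib, which inhibits the receptors for IGF1 and insulin, and EV. The group DMSO_EV had the vehicle DMSO and EV. The submitters did not spell out EV, and for Osi_Lin_EV only the sample titles give it. No group among the 9 libraries had osimertinib with EV alone, so linsitinib and the circular RNA changed together between the osimertinib groups, and their parts cannot be told apart. Against DMSO_EV, osimertinib changed together with linsitinib in Osi_Lin_EV and with the circular RNA in Osi_cIGF1R. The part of osimertinib itself therefore cannot be told apart either. All 9 libraries come from 1 cell line, and separate cultures within a group are not stated, so the p-values cover only spread among these libraries, which may be technical. In bulk RNA, fewer cells that express a gene and less of its RNA per cell cannot be told apart.

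Levels are given in FPKM, the fragments of a gene scaled to its length and to the fragments of the library, and read depth is unknown. The gene IGF1R, which holds the sequence of the circular RNA, had 81.4, 82.3 and 101 FPKM in Osi_cIGF1R, 4.41, 3.56 and 3.73 FPKM in Osi_Lin_EV and 3.76, 4.41 and 4.23 FPKM in DMSO_EV. Transcripts of mitochondrial DNA made up 6.08% to 7.28% of the summed FPKM in Osi_cIGF1R, 20.4% to 25.6% in Osi_Lin_EV and 20.3% to 30.4% in DMSO_EV. Replicate 1 of Osi_cIGF1R and replicate 2 of DMSO_EV stood apart from their groups on small structural RNAs: RN7SL1 was at 53.2 FPKM in that Osi_cIGF1R library against 3.16 and 6.37 FPKM in the others, and at 443 FPKM in that DMSO_EV library against 46.4 and 36.1 FPKM. Epithelial markers fixed in a list (EPCAM, CDH1, KRT7, KRT8, KRT18, KRT19 and NKX2-1) summed to 12400 to 15200 FPKM in Osi_cIGF1R, 13200 to 14400 FPKM in Osi_Lin_EV and 11200 to 12500 FPKM in DMSO_EV, with NKX2-1 alone of the 7 under 0.1 FPKM in every group. Each marker list for alveolar, fibroblast, leukocyte, endothelial and melanocyte cells summed to under 8 FPKM in every library. The sums cover only the markers found: 6 of 6, 4 of 6, 5 of 6, 4 of 5 and 4 of 5 in that order.

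Promoter letters of 5 genes are shown because 2 of the members, ATG3 and ATG14, held the E-box CACGTG that MiT/TFE factors bind, CTSF is a lysosomal gene of the CLEAR network with the same element, and GABARAPL1 and ATG9B are members with some of the largest rises described below. Each run is the 250 bases before the RefSeq start, 5′ to 3′ on the strand of the gene (GRCh38.p14), with CACGTG in capitals. ATG3 is at chr3:112561963-112562212, ATG14 at chr14:55411831-55412080, CTSF at chr11:66568607-66568856 and ATG9B at chr7:151024500-151024749, all on the minus strand, and GABARAPL1 is at chr12:10212627-10212876 on the plus strand.
ATG3: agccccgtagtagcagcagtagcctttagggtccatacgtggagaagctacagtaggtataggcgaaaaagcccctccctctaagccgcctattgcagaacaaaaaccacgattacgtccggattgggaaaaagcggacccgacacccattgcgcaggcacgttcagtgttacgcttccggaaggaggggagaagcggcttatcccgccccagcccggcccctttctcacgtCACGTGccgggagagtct
ATG14: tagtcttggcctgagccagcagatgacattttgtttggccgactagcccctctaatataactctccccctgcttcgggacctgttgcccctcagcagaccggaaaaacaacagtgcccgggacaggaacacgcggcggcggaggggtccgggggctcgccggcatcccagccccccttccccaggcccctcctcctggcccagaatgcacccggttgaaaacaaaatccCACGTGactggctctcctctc
CTSF: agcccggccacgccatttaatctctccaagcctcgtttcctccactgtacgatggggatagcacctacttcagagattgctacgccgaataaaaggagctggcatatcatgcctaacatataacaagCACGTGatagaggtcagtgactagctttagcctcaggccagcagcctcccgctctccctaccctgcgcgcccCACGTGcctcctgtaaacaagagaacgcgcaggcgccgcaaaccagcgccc
GABARAPL1: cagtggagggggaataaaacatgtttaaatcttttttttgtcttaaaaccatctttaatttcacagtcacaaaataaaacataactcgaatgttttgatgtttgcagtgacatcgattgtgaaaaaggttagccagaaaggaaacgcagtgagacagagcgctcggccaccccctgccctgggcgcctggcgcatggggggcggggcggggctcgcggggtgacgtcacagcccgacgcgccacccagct
ATG9B: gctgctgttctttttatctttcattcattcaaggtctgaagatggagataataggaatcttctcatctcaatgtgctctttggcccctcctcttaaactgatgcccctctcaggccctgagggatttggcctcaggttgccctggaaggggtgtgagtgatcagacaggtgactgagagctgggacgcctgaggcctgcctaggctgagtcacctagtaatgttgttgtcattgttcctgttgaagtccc
A promoter was listed for 33 of the 37 members, spanning 250 bases before and 50 after the start. CACGTG, which reads the same on both strands, was in 2 of these 33 promoters (6.06%), against 7.43% of all 27305 promoters and 10.3% of the 9908 promoters of tested genes. In ATG3 it began 18 bases before the start and again at base 6 after it, outside the run shown, and in ATG14 it began 21 bases before the start. Of the lysosomal CLEAR genes listed below, 9 of the 13 with a promoter held it. The CLEAR network is named after an element of this kind, so that share is no separate result. The longer palindrome TCACGTGA, which contains CACGTG, was in 1 member, ATG3, and in 1.04% of all promoters. The full CLEAR element, which extends it by 1 base at each end, was in 0 members and in 0.381% of all promoters. On either strand, TCATGTG was in 1 member (ATG101) and 2.99% of all promoters, TGTTTAC in 0 members and 3.41%, and TTTCGCGC in 1 member (ATG2A) and 0.546%. A single member is 3.03% of the 33. Among promoters of tested genes TCACGTGA was in 2.04%, the full CLEAR element in 0.868%, TCATGTG in 1.61%, TGTTTAC in 2.38% and TTTCGCGC in 1.04%. These are matches of letters in a short window and show nothing of binding.

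Of the 37 members, 36 reached 1 FPKM in at least 3 libraries and were tested, among 13775 genes in all. MAP1LC3A was not tested, and ATG2B was tested through its level in Osi_Lin_EV alone. A gene is called when its adjusted p from limma is under 0.05, and fold changes are on the scale of log2(FPKM + 1). With that rule, 18 of 36 members were called in Osi_Lin_EV against DMSO_EV, 25 in Osi_cIGF1R against DMSO_EV and 19 in Osi_cIGF1R against Osi_Lin_EV. Among all 13775 tested genes the called share was 52.6%, 69.0% and 60.7% in the same comparisons, near the members' 50%, 69.4% and 52.8%, so the number of calls says nothing particular about the members. The first and second comparisons share the DMSO_EV libraries. The groups did not overlap for 19 members (16 higher, 3 lower), 26 members (21 higher, 5 lower) and 23 members (13 higher, 10 lower) in the same comparisons. Over all tested genes that share was 61.9% (34.3% higher, 27.6% lower), 69.8% (33.3% higher, 36.5% lower) and 68.1% (29.6% higher, 38.4% lower). An absolute log2 fold change of at least 1 was called higher for 4, 5 and 0 members, against 3.65%, 10.4% and 6.58% of all genes, and lower for 0, 0 and 1 members, against 5.54%, 11.4% and 4.38%.

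By direction, in Osi_Lin_EV against DMSO_EV, 15 members were higher (41.7%, against 29.0% of all genes) and 3 lower (8.33%, against 23.5%). In Osi_cIGF1R against DMSO_EV, 20 were higher (55.6%, against 33.1%) and 5 lower (13.9%, against 35.8%). In Osi_cIGF1R against Osi_Lin_EV, 11 were higher (30.6%, against 25.9%) and 8 lower (22.2%, against 34.8%); with median-of-ratios rescaling of the libraries these became 14 and 5, and the higher share of all called genes became 54.9% in place of 42.7%. Without ATG2B, 14 of 35 were higher and 3 lower in the first comparison, 20 and 5 in the second, and 11 and 7 in the third. The median log2 fold change of the tested members was 0.19, 0.31 and 0.05 in the 3 comparisons, against 0.05, -0.03 and -0.09 over all tested genes. Without the Osi_cIGF1R and DMSO_EV libraries that stood apart, 16, 18 and 14 members were called. With the libraries rescaled to equal totals without mitochondrial genes, 18, 24 and 20 were called.

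**Figure D1:**
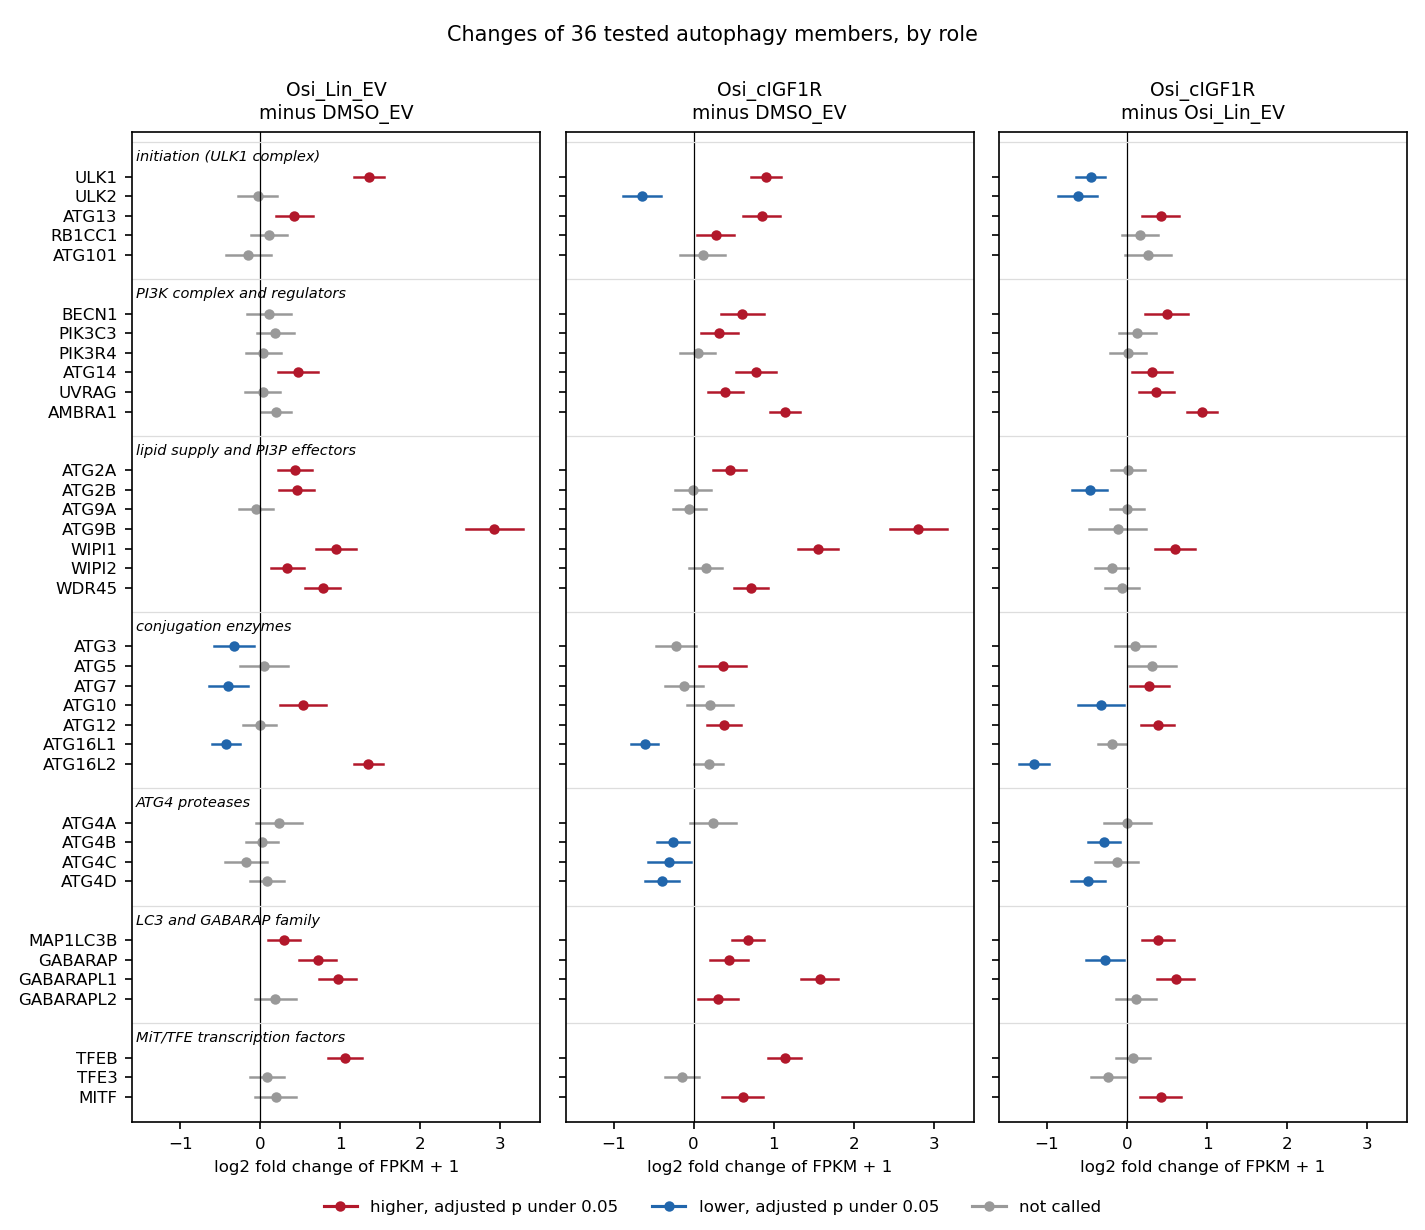
Log2 fold change of FPKM + 1 (x axis) with its 95% confidence interval for the 36 tested members, grouped by role, in 3 comparisons; red is called higher, blue called lower and grey not called. In both comparisons with DMSO_EV, ATG9B lies farthest from 0, and the conjugation enzymes and ATG4 proteases hold most of the members called lower.

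The summed level of the genes of a role gives its overall amount and hides members that go in opposite directions. The initiation genes summed to 95.2 ± 3.41 FPKM in Osi_cIGF1R, 97.8 ± 3.25 FPKM in Osi_Lin_EV and 62.3 ± 4.72 FPKM in DMSO_EV (SD, n = 3 here and below). The LC3 and GABARAP family summed to 260 ± 28.7, 252 ± 19.0 and 161 ± 8.64 FPKM in the same order of groups. The conjugation enzymes summed to 62.5 ± 6.24, 64.7 ± 1.84 and 66.1 ± 5.89 FPKM, differences smaller than the spread between libraries. Yet 5 of the 7 were called in Osi_Lin_EV against DMSO_EV (71.4%, against 52.6% of all tested genes). Of these, 2 were higher (28.6% of the 7, against 29.0%) and 3 lower (42.9%, against 23.5%). The summed level of the PI3K genes in Osi_cIGF1R, 65.4 ± 0.573 FPKM, lay 1.44-fold above Osi_Lin_EV at 45.5 ± 2.25 FPKM, with DMSO_EV at 39.1 ± 2.46 FPKM. A sum weighs abundant genes most, so the members follow one by one.

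In the initiation complex, ULK1 rose in both osimertinib groups while its close relative ULK2 did not. ULK1, the kinase that starts autophagy, had 38.0, 37.1 and 35.8 FPKM in Osi_cIGF1R, 51.1, 50.3 and 51.7 FPKM in Osi_Lin_EV and 20.0, 20.2 and 17.5 FPKM in DMSO_EV. No group overlapped another, and Osi_Lin_EV was highest. The log2 fold change of ULK1 was 1.36 ± 0.09 (SE) in Osi_Lin_EV against DMSO_EV (adjusted p = 3.03e-08), 0.91 ± 0.09 in Osi_cIGF1R against DMSO_EV (adjusted p = 6.46e-07) and -0.46 ± 0.09 in Osi_cIGF1R against Osi_Lin_EV (adjusted p = 0.000535). ULK2, a second kinase of the same family, had 0.927, 0.763 and 0.602 FPKM in Osi_cIGF1R, 1.82, 1.35 and 1.95 FPKM in Osi_Lin_EV and 1.72, 1.71 and 1.83 FPKM in DMSO_EV. Its Osi_cIGF1R libraries all lay below 1 FPKM and below both other groups, which overlapped each other. ULK2 fell by 0.65 ± 0.11 against DMSO_EV (adjusted p = 0.000164) and by 0.62 ± 0.11 against Osi_Lin_EV (adjusted p = 0.000365) in Osi_cIGF1R.

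ATG13, the adaptor that holds the complex together, had 28.7, 27.9 and 29.8 FPKM in Osi_cIGF1R, 22.8, 21.5 and 19.5 FPKM in Osi_Lin_EV and 13.0, 16.7 and 17.1 FPKM in DMSO_EV. The groups formed 3 separate steps, and the log2 fold changes were 0.43 ± 0.11 for Osi_Lin_EV against DMSO_EV (adjusted p = 0.00456), 0.85 ± 0.11 for Osi_cIGF1R against DMSO_EV (adjusted p = 1e-05) and 0.42 ± 0.11 for Osi_cIGF1R against Osi_Lin_EV (adjusted p = 0.00406). RB1CC1 (FIP200), the scaffold of the complex, averaged 5.47 ± 0.622 FPKM in Osi_cIGF1R, 4.75 ± 0.165 FPKM in Osi_Lin_EV and 4.35 ± 0.575 FPKM in DMSO_EV. It was called only in Osi_cIGF1R against DMSO_EV (adjusted p = 0.0337), where the groups overlapped, and the call was lost without replicate 1 or 2 of either group. ATG101, which stabilises ATG13, averaged 23.2 ± 4.06, 19.1 ± 1.97 and 21.3 ± 2.83 FPKM in the same order and was called in no comparison. Of the 5 initiation genes, 2 were higher in Osi_Lin_EV than in DMSO_EV (40.0%, against 29.0% of all tested genes). In Osi_cIGF1R against DMSO_EV 3 were higher (60.0%, against 33.1%) and 1 lower (20.0%, against 35.8%). ATG13 shares 343 bases with HARBI1 on the opposite strand, a gene at 2.72, 1.95 and 1.51 FPKM in the 3 groups, and whether the authors' counting used strand is not given, so the part of such neighbours was not tested here or below.

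Of the 6 PI3K genes, 5 rose in Osi_cIGF1R against DMSO_EV (83.3%, against 33.1% of all tested genes). Of these 5, 4 also rose against Osi_Lin_EV (66.7% of the 6, against 25.9%). In Osi_Lin_EV against DMSO_EV 1 of the 6 rose (16.7%, against 29.0%). None was lower in any comparison, against 35.8%, 34.8% and 23.5% of all tested genes in the same order. AMBRA1, a regulator that binds Beclin 1, had 20.1, 19.5 and 17.7 FPKM in Osi_cIGF1R, 9.73, 9.60 and 9.08 FPKM in Osi_Lin_EV and 7.80, 8.05 and 8.56 FPKM in DMSO_EV. All 3 Osi_cIGF1R libraries stood far above every other library. Its log2 fold change was 1.14 ± 0.09 against DMSO_EV (adjusted p = 7.19e-08) and 0.94 ± 0.09 against Osi_Lin_EV (adjusted p = 1.11e-06) in Osi_cIGF1R, while 0.20 ± 0.09 in Osi_Lin_EV against DMSO_EV was not called (adjusted p = 0.0734). BECN1, which encodes Beclin 1, a core subunit, had 16.9, 17.5 and 21.2 FPKM in Osi_cIGF1R, 14.7, 12.7 and 11.2 FPKM in Osi_Lin_EV and 10.2, 11.9 and 13.4 FPKM in DMSO_EV. The Osi_cIGF1R libraries lay above all others, and the other groups overlapped. BECN1 rose by 0.61 ± 0.12 against DMSO_EV (adjusted p = 0.000689) and by 0.50 ± 0.12 against Osi_Lin_EV (adjusted p = 0.00376).

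ATG14, the subunit that directs the PI3K complex to autophagosome formation, had 14.3, 14.7 and 13.4 FPKM in Osi_cIGF1R, 10.5, 11.1 and 12 FPKM in Osi_Lin_EV and 9.56, 6.65 and 7.40 FPKM in DMSO_EV. The groups did not overlap, with log2 fold changes of 0.47 ± 0.11 for Osi_Lin_EV against DMSO_EV (adjusted p = 0.00361) and 0.78 ± 0.11 for Osi_cIGF1R against DMSO_EV (adjusted p = 3.86e-05). The difference of 0.31 between Osi_cIGF1R and Osi_Lin_EV (adjusted p = 0.0308) was not called without replicate 1 or 2 of either group. It was also lost with libraries rescaled to equal totals without mitochondrial genes, with quantile normalization and without a filter. The span of ATG14 overlaps FBXO34 on the opposite strand, which averaged 20.9, 9.98 and 9.82 FPKM in Osi_cIGF1R, Osi_Lin_EV and DMSO_EV. UVRAG, the subunit of the endosomal PI3K complex, averaged 4.77 ± 0.14 FPKM in Osi_cIGF1R, 3.49 ± 0.534 FPKM in Osi_Lin_EV and 3.38 ± 0.158 FPKM in DMSO_EV, and rose in Osi_cIGF1R against both. PIK3C3, the catalytic subunit VPS34, was called only in Osi_cIGF1R against DMSO_EV, at 2.41 ± 0.0817 against 1.74 ± 0.347 FPKM (adjusted p = 0.0166), and not without replicate 2 of Osi_cIGF1R or replicate 1 or 2 of DMSO_EV. PIK3R4, the regulatory subunit VPS15, stayed between 5.53 and 6.94 FPKM in all 9 libraries and was not called.

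**Figure D2:**
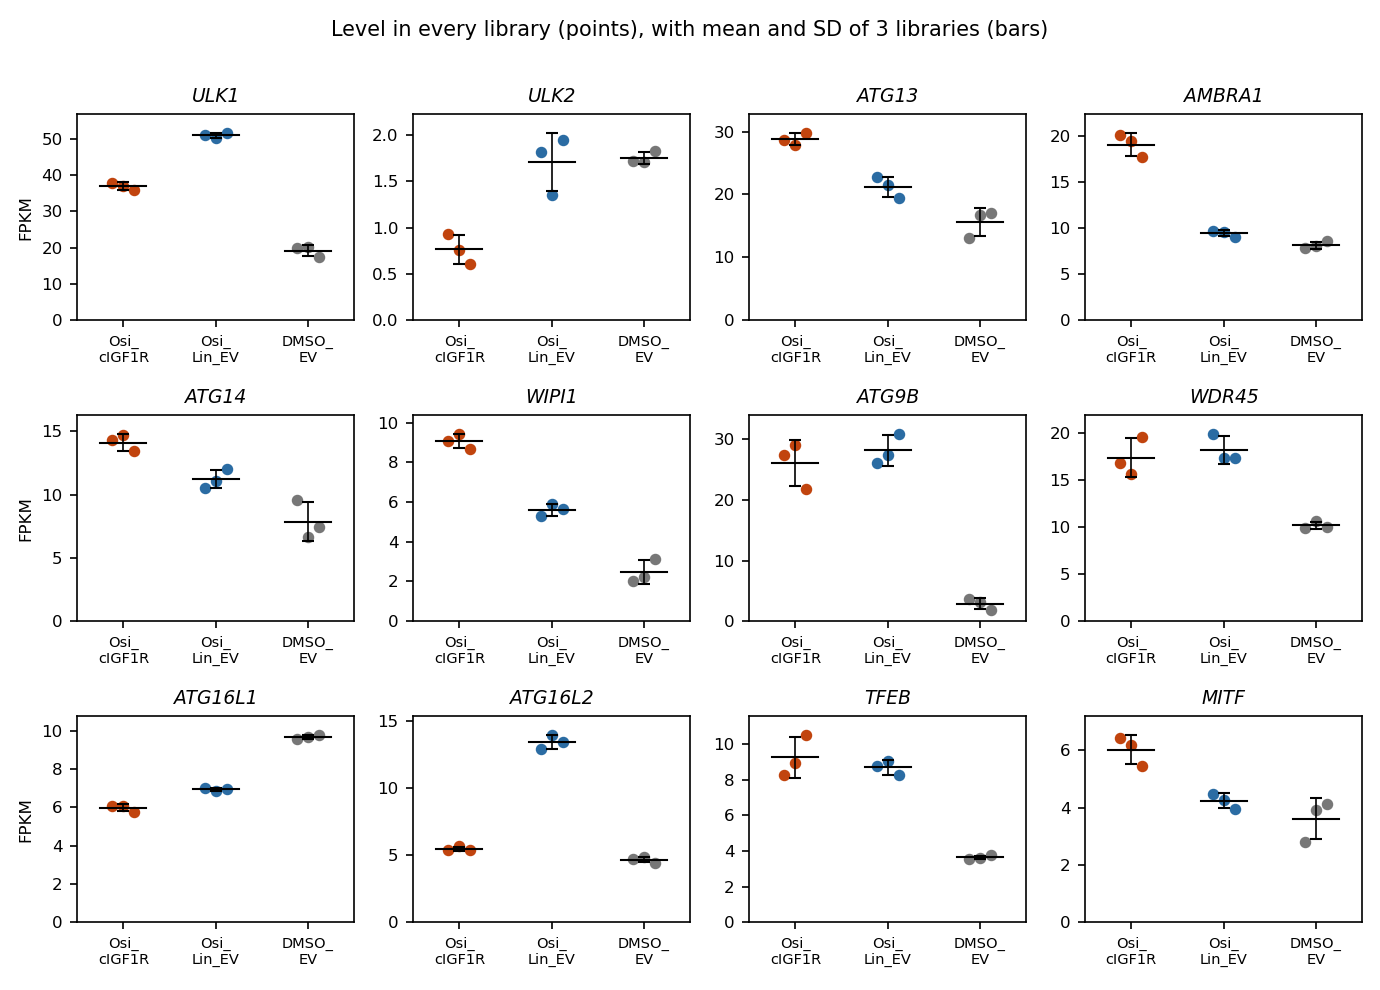
FPKM of 12 members in every library (points), with the group mean and SD of 3 libraries (bars), on axes from 0; groups run Osi_cIGF1R, Osi_Lin_EV, DMSO_EV from left to right. AMBRA1 is high in Osi_cIGF1R alone, ATG16L2 in Osi_Lin_EV, and ATG9B and TFEB in both osimertinib groups.

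Among the genes of lipid supply and PI3P binding, 6 of 7 were higher in Osi_Lin_EV than in DMSO_EV (85.7%, against 29.0% of all tested genes). In Osi_cIGF1R 4 of 7 were higher than in DMSO_EV (57.1%, against 33.1%). None was lower in either comparison, against 23.5% and 35.8% of all tested genes. Without ATG2B, which passed the filter only through Osi_Lin_EV, the higher genes were 5 of 6 (83.3%) and 4 of 6 (66.7%). ATG9B, a lipid scramblase of the vesicles that seed the autophagosome and the paralogue of ATG9A, had 27.4, 29.1 and 21.8 FPKM in Osi_cIGF1R, 26.1, 27.5 and 30.9 FPKM in Osi_Lin_EV and 3.62, 3.25 and 1.87 FPKM in DMSO_EV. Both osimertinib groups lay far above DMSO_EV and overlapped each other. The log2 fold change of ATG9B, the largest of any member in both comparisons, was 2.92 ± 0.16 for Osi_Lin_EV (adjusted p = 2.07e-08) and 2.81 ± 0.16 for Osi_cIGF1R (adjusted p = 1.09e-08) against DMSO_EV. The difference between Osi_cIGF1R and Osi_Lin_EV was -0.11, with a 95% confidence interval of -0.47 to 0.24. ATG9A averaged 18.5 ± 0.269, 18.4 ± 1.29 and 19.2 ± 2.24 FPKM in Osi_cIGF1R, Osi_Lin_EV and DMSO_EV and was called in none. ATG9B therefore made up 58.3% ± 4.08, 60.4% ± 3.62 and 13.2% ± 4.25 of the summed level of the pair in the same groups; each osimertinib group lay above DMSO_EV in every library (two-sided exact permutation p = 0.1, the smallest that 3 against 3 allow). ATG9B shares 2380 bases with NOS3 on the opposite strand. NOS3 averaged 4.76, 1.93 and 0.262 FPKM in Osi_cIGF1R, Osi_Lin_EV and DMSO_EV, and was thus also higher in both osimertinib groups. Its part in the values of ATG9B was not tested.

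WIPI1, a PI3P-binding effector, had 9.08, 9.41 and 8.69 FPKM in Osi_cIGF1R, 5.30, 5.89 and 5.67 FPKM in Osi_Lin_EV and 2.01, 2.25 and 3.14 FPKM in DMSO_EV. The groups were 3 separate steps. WIPI1 rose by 0.94 ± 0.12 in Osi_Lin_EV (adjusted p = 1.59e-05) and 1.55 ± 0.12 in Osi_cIGF1R (adjusted p = 5.75e-08) against DMSO_EV, and by 0.60 ± 0.12 in Osi_cIGF1R against Osi_Lin_EV (adjusted p = 0.000556). The span of WIPI1 overlaps PRKAR1A on the opposite strand, at 15.4, 12.7 and 11.4 FPKM in the 3 groups. WDR45 (WIPI4), the family member that pairs with ATG2, had 16.8, 15.7 and 19.6 FPKM in Osi_cIGF1R, 19.9, 17.4 and 17.3 FPKM in Osi_Lin_EV and 9.88, 10.6 and 9.98 FPKM in DMSO_EV. Both osimertinib groups were above DMSO_EV (0.78 and 0.72 on the log2 scale for Osi_Lin_EV and Osi_cIGF1R, adjusted p = 2.29e-05 and 2.44e-05) and overlapped each other. ATG2A, a lipid transfer protein, rose in both against DMSO_EV, at 15.1 ± 1.29, 14.9 ± 0.802 and 10.8 ± 0.982 FPKM. Its paralogue ATG2B was at 0.836 ± 0.18 FPKM in Osi_cIGF1R, 1.53 ± 0.0408 FPKM in Osi_Lin_EV and 0.843 ± 0.109 FPKM in DMSO_EV, and its calls are no support because of how it passed the filter. WIPI2, the effector that recruits ATG16L1, was higher in Osi_Lin_EV than in DMSO_EV, at 16.8 ± 0.316 against 13.1 ± 1.59 FPKM (adjusted p = 0.00912), and at 14.6 ± 0.45 FPKM in Osi_cIGF1R was not called against either.

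The conjugation enzymes moved in both directions. In Osi_Lin_EV against DMSO_EV, ATG10 and ATG16L2 were higher and ATG3, ATG7 and ATG16L1 lower; in Osi_cIGF1R against DMSO_EV, ATG5 and ATG12 were higher and ATG16L1 lower. ATG16L1, which places the ATG12-ATG5 conjugate at the membrane, had 6.09, 6.07 and 5.76 FPKM in Osi_cIGF1R, 7.03, 6.87 and 6.94 FPKM in Osi_Lin_EV and 9.56, 9.69 and 9.75 FPKM in DMSO_EV. Each group was tight and separate from the others, with both osimertinib groups below DMSO_EV. ATG16L1 fell by 0.42 ± 0.08 in Osi_Lin_EV (adjusted p = 0.000653) and by 0.61 ± 0.08 in Osi_cIGF1R (adjusted p = 1.51e-05) against DMSO_EV. Its paralogue ATG16L2, whose part in autophagy is less clear, had 5.35, 5.64 and 5.34 FPKM in Osi_cIGF1R, 12.9, 13.9 and 13.4 FPKM in Osi_Lin_EV and 4.67, 4.86 and 4.44 FPKM in DMSO_EV. Osi_Lin_EV stood alone, far above both other groups. The log2 fold change of ATG16L2 was 1.35 ± 0.08 for Osi_Lin_EV against DMSO_EV (adjusted p = 2.71e-08) and -1.16 ± 0.08 for Osi_cIGF1R against Osi_Lin_EV (adjusted p = 1.06e-07), the largest difference of any member between the osimertinib groups, and 0.19 for Osi_cIGF1R against DMSO_EV was not called (adjusted p = 0.0628).

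The share of ATG16L2 in the summed level of both ATG16L paralogues was 47.7% ± 0.802 in Osi_cIGF1R, 65.9% ± 1.12 in Osi_Lin_EV and 32.5% ± 1.09 in DMSO_EV, and every pair of groups was separate (exact permutation p = 0.1 each). ATG16L2 shares 6996 bases with FCHSD2 on the opposite strand, which averaged 11.3, 3.81 and 3.06 FPKM in Osi_cIGF1R, Osi_Lin_EV and DMSO_EV, highest in Osi_cIGF1R. ATG10, the E2-like enzyme that joins ATG12 to ATG5, had 1.42, 1.30 and 2.03 FPKM in Osi_cIGF1R, 2.05, 2.13 and 2.47 FPKM in Osi_Lin_EV and 0.915, 1.21 and 1.58 FPKM in DMSO_EV. Osi_Lin_EV lay above both other groups, which overlapped. ATG10 rose by 0.54 ± 0.13 in Osi_Lin_EV against DMSO_EV (adjusted p = 0.00412), while the call of -0.33 for Osi_cIGF1R against Osi_Lin_EV (adjusted p = 0.0477) was lost in 12 of 20 other settings.

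ATG7, the E1-like enzyme of both conjugation systems, averaged 8.67 ± 0.87 FPKM in Osi_cIGF1R, 6.98 ± 0.763 FPKM in Osi_Lin_EV and 9.52 ± 1.13 FPKM in DMSO_EV. It was lower in Osi_Lin_EV than in DMSO_EV (-0.40, adjusted p = 0.0091), and its call in Osi_cIGF1R against Osi_Lin_EV (0.28, adjusted p = 0.046) was lost without any 1 of 6 libraries, among them all 3 of Osi_Lin_EV. ATG3, the E2-like enzyme for LC3 and 1 of the 2 members with an E-box, averaged 25 ± 4.17, 23.0 ± 0.911 and 29.2 ± 2.78 FPKM in Osi_cIGF1R, Osi_Lin_EV and DMSO_EV. It was called lower only in Osi_Lin_EV against DMSO_EV (-0.33, adjusted p = 0.0286), a call lost without replicate 2 or 3 of Osi_Lin_EV or of DMSO_EV. ATG12, a ubiquitin-like protein, averaged 6.64 ± 0.364 FPKM in Osi_cIGF1R, against 4.86 ± 0.346 FPKM in Osi_Lin_EV (adjusted p = 0.00373) and 4.88 ± 0.461 FPKM in DMSO_EV (adjusted p = 0.00307). ATG5, its partner, averaged 9.17 ± 0.883, 7.21 ± 1.04 and 6.99 ± 1.45 FPKM in Osi_cIGF1R, Osi_Lin_EV and DMSO_EV; its call against DMSO_EV (adjusted p = 0.0312) rested on overlapping groups and was lost without replicate 1 or 3 of Osi_cIGF1R or replicate 1 or 2 of DMSO_EV.

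The ATG4 proteases, which process LC3 and GABARAP proteins and release them from membranes, were the only role with members called lower and none called higher. In Osi_Lin_EV against DMSO_EV 0 of 4 were called, against 52.6% of all tested genes. In Osi_cIGF1R 3 of 4 were lower than in DMSO_EV, against 35.8% of all tested genes. Lower in Osi_cIGF1R than in Osi_Lin_EV were 2 of 4, against 34.8%. Under median-of-ratios rescaling 1 of 4 was lower in each of these 2 comparisons. With only 4 genes, such counts cannot set the role apart from all tested genes. ATG4D averaged 9.06 ± 0.853 FPKM in Osi_cIGF1R, 13.0 ± 0.721 FPKM in Osi_Lin_EV (adjusted p = 0.000908) and 12.2 ± 1.12 FPKM in DMSO_EV (adjusted p = 0.00296). Without the 2 libraries that stood apart, replicate 1 of Osi_cIGF1R and replicate 2 of DMSO_EV, 0 of 4 were called against DMSO_EV, ATG4D included, and 1 of 4 against Osi_Lin_EV. ATG4B averaged 22.1 ± 1.96, 27.0 ± 1.49 and 26.5 ± 1.41 FPKM in the same groups (adjusted p = 0.018 against Osi_Lin_EV and 0.0245 against DMSO_EV). Neither ATG4B call held under median-of-ratios rescaling, or without replicate 1 or 2 of Osi_cIGF1R, and the call against DMSO_EV was also lost without replicate 1 or 2 of that group and the other without replicate 1 of Osi_Lin_EV. ATG4C averaged 1.46 ± 0.064 FPKM in Osi_cIGF1R and 2.06 ± 0.476 FPKM in DMSO_EV (adjusted p = 0.0427), a call lost in 11 of 20 other settings. ATG4A, at means of 5, 5.03 and 4.08 FPKM, was not called.

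All 4 tested genes of the LC3 and GABARAP family were higher in Osi_cIGF1R than in DMSO_EV, against 33.1% of all tested genes. In Osi_Lin_EV 3 of 4 were higher than in DMSO_EV (75.0%, against 29.0%). These proteins coat the inner and outer autophagosome membrane and bind cargo receptors. GABARAPL1 had 64.7, 69.0 and 75.6 FPKM in Osi_cIGF1R, 48.7, 44.9 and 42.5 FPKM in Osi_Lin_EV and 19.8, 23.0 and 25.6 FPKM in DMSO_EV. The groups were 3 separate steps with Osi_cIGF1R highest. The log2 fold change of GABARAPL1 was 0.97 ± 0.11 for Osi_Lin_EV (adjusted p = 6.8e-06) and 1.58 ± 0.11 for Osi_cIGF1R (adjusted p = 2.43e-08) against DMSO_EV, and 0.61 ± 0.11 for Osi_cIGF1R against Osi_Lin_EV (adjusted p = 0.000307). The promoter shown above for GABARAPL1 held no CACGTG in its window.

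GABARAP, the most abundant member in every group, had 114, 118 and 143 FPKM in Osi_cIGF1R, 160, 156 and 137 FPKM in Osi_Lin_EV and 88.6, 93.6 and 91.4 FPKM in DMSO_EV. Both osimertinib groups were above DMSO_EV, and they overlapped each other. GABARAP rose by 0.72 ± 0.11 in Osi_Lin_EV (adjusted p = 9.89e-05) and by 0.44 ± 0.11 in Osi_cIGF1R (adjusted p = 0.00248) against DMSO_EV. The difference of -0.28 between Osi_cIGF1R and Osi_Lin_EV (adjusted p = 0.042) was not called in 11 of 20 other settings, among them median-of-ratios rescaling and the omission of replicate 1 or 2 of Osi_cIGF1R or of Osi_Lin_EV, or of replicate 2 or 3 of DMSO_EV. Its span shares 821 bases with PHF23 on the same strand, a gene at 29.4, 21.1 and 22.3 FPKM in the 3 groups.

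MAP1LC3B, the LC3 gene most used as a marker of autophagosomes, had 21.1, 22.6 and 25.4 FPKM in Osi_cIGF1R, 17.6, 18.3 and 16.3 FPKM in Osi_Lin_EV and 13.6, 13.6 and 14.9 FPKM in DMSO_EV. The groups did not overlap. MAP1LC3B rose by 0.68 ± 0.09 in Osi_cIGF1R against DMSO_EV (adjusted p = 2.28e-05) and by 0.38 ± 0.09 against Osi_Lin_EV (adjusted p = 0.00319). The smaller rise of 0.30 in Osi_Lin_EV against DMSO_EV (adjusted p = 0.0175) was not called under median-of-ratios rescaling (adjusted p = 0.0764) or without replicate 1 or 2 of Osi_Lin_EV or replicate 2 of DMSO_EV. GABARAPL2 had 38.5, 38.3 and 47.7 FPKM in Osi_cIGF1R, 38.2, 42.2 and 34.3 FPKM in Osi_Lin_EV and 30.2, 32.7 and 37.4 FPKM in DMSO_EV. Its libraries ran into each other except that Osi_cIGF1R lay just above DMSO_EV (0.30, adjusted p = 0.0342), a call lost without replicate 3 of Osi_cIGF1R or replicate 1 or 2 of DMSO_EV. MAP1LC3A was at 0.101, 0.0459 and 0.205 FPKM in Osi_cIGF1R, 0.0843, 0.0514 and 0 FPKM in Osi_Lin_EV and 0, 0 and 0.0334 FPKM in DMSO_EV. MAP1LC3B2, a near copy of MAP1LC3B that could share its reads, averaged 1.34, 1.06 and 1.02 FPKM in the 3 groups.

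The make-up of the family differed between groups as well as its sum. GABARAPL1 held 26.9% ± 0.999 of the family's summed FPKM in Osi_cIGF1R, 18.0% ± 0.737 in Osi_Lin_EV and 14.1% ± 1.07 in DMSO_EV, and GABARAP held 48.1% ± 0.799, 59.9% ± 0.464 and 56.6% ± 2.27. Each of these differences separated all libraries of the groups compared (exact permutation p = 0.1). In Osi_cIGF1R and Osi_Lin_EV GABARAPL1 was above GABARAPL2 in every library, and in DMSO_EV below it in every library. The 3 GABARAP genes together made up 91.1% ± 0.186 in Osi_cIGF1R, 93.1% ± 0.221 in Osi_Lin_EV and 91.3% ± 0.309 in DMSO_EV; Osi_Lin_EV was above both others (exact permutation p = 0.1), and Osi_cIGF1R overlapped DMSO_EV (exact permutation p = 0.5).

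**Figure D3:**
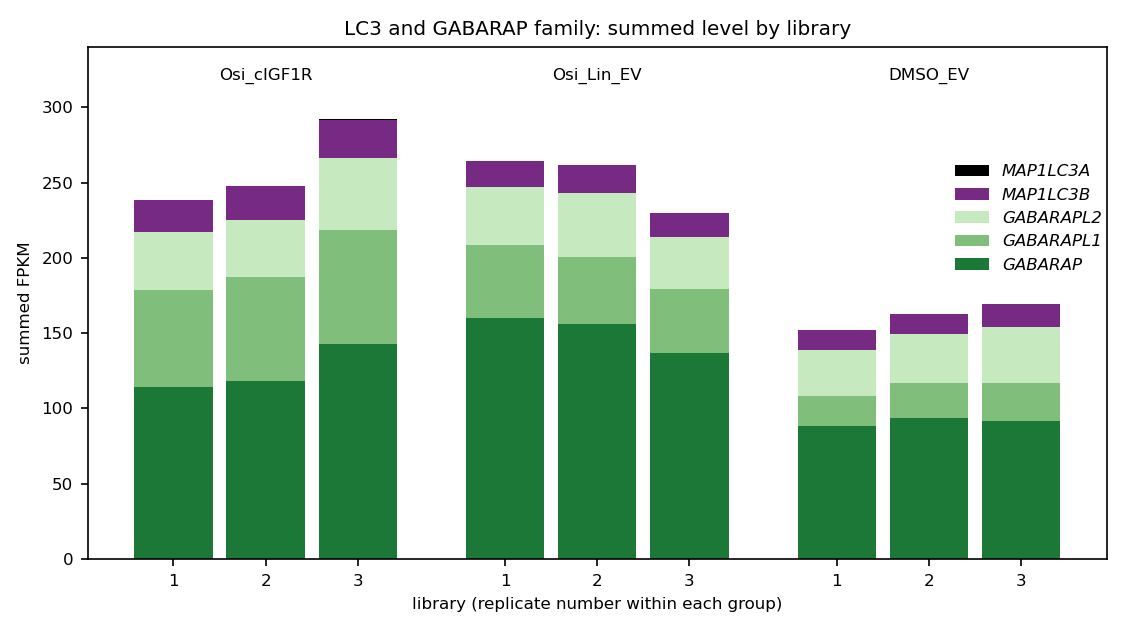
Stacked FPKM of the 5 LC3 and GABARAP family genes in each of the 9 libraries, grouped as Osi_cIGF1R, Osi_Lin_EV and DMSO_EV from left to right. The sums lie between 230 and 292 FPKM in the osimertinib libraries and between 152 and 169 FPKM in DMSO_EV, and the GABARAPL1 layer is thickest in Osi_cIGF1R.

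Of the transcription factors, TFEB rose in both osimertinib groups. TFEB had 8.29, 8.95 and 10.5 FPKM in Osi_cIGF1R, 8.77, 9.06 and 8.25 FPKM in Osi_Lin_EV and 3.55, 3.62 and 3.76 FPKM in DMSO_EV. The osimertinib groups overlapped each other and lay above every DMSO_EV library. The log2 fold change of TFEB was 1.06 ± 0.10 for Osi_Lin_EV (adjusted p = 1.13e-06) and 1.14 ± 0.10 for Osi_cIGF1R (adjusted p = 2.35e-07) against DMSO_EV, and 0.08 between Osi_cIGF1R and Osi_Lin_EV, with a 95% confidence interval of -0.13 to 0.29. TFE3 had 11.1, 11.3 and 11.4 FPKM in Osi_cIGF1R, 14.3, 13.0 and 13.1 FPKM in Osi_Lin_EV and 10.8, 13.3 and 13.8 FPKM in DMSO_EV. It was called in no comparison, although Osi_cIGF1R lay below Osi_Lin_EV in every library (-0.24, adjusted p = 0.0519). MITF, best known from melanocytes, had 6.43, 6.19 and 5.46 FPKM in Osi_cIGF1R, 4.48, 4.27 and 3.96 FPKM in Osi_Lin_EV and 2.80, 3.93 and 4.12 FPKM in DMSO_EV. Osi_cIGF1R lay above both other groups, which overlapped. MITF rose by 0.62 ± 0.12 against DMSO_EV (adjusted p = 0.000422) and 0.42 ± 0.12 against Osi_Lin_EV (adjusted p = 0.00765) in Osi_cIGF1R.

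TFE3 was the most abundant of the 3 factors in every group, and its share of their sum was 42.4% ± 0.773 in Osi_cIGF1R, 51.0% ± 1.37 in Osi_Lin_EV and 63.5% ± 0.45 in DMSO_EV (exact permutation p = 0.1 for each pair). TFEB held 34.8% ± 3.29, 32.9% ± 1.3 and 18.5% ± 1.94 of that sum in the same groups. ULK1, at the other end of the pathway, made up 98.0% ± 0.362, 96.8% ± 0.541 and 91.6% ± 0.924 of the sum of ULK1 and ULK2. mRNA levels say nothing of whether the MiT/TFE proteins were in the nucleus, nor of how much LC3 was on membranes.

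**Figure D4:**
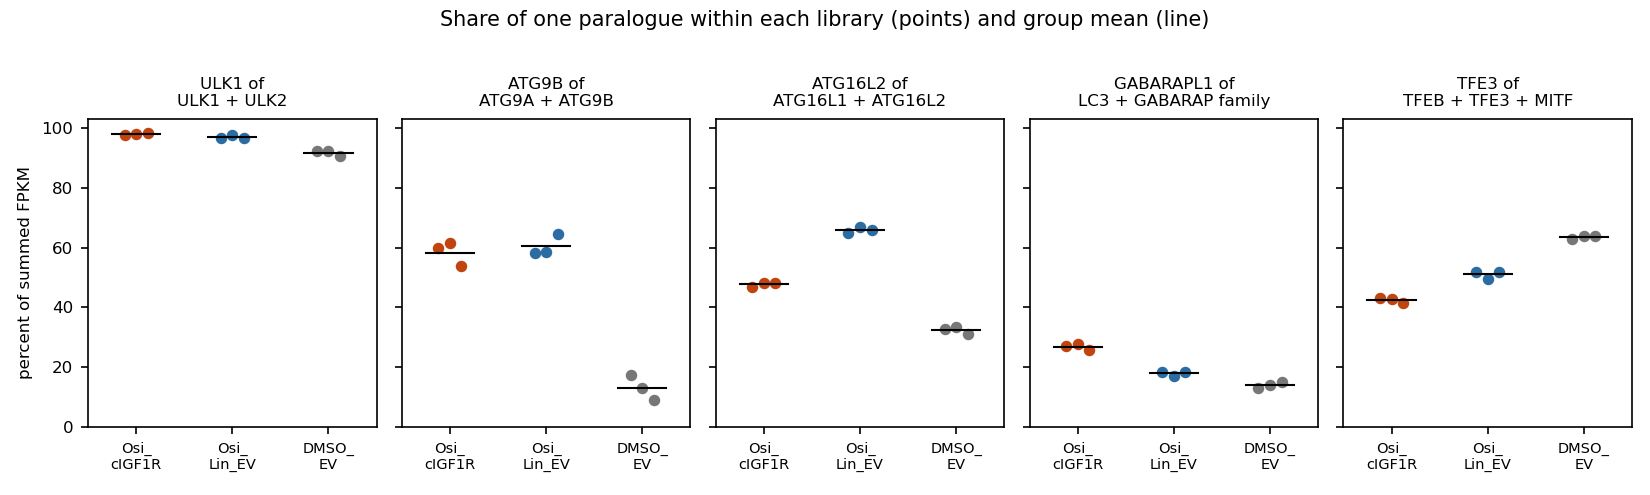
Share of 1 paralogue in the summed FPKM of its family (percent, y axis from 0) in every library (points) and as a group mean (line), for Osi_cIGF1R, Osi_Lin_EV and DMSO_EV from left to right. The ATG9B share is near 60% in both osimertinib groups and 13.2% in DMSO_EV, the ATG16L2 share peaks in Osi_Lin_EV, and the TFE3 share is lowest in Osi_cIGF1R.

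Genes around the core were read from lists which, like the members, were not chosen blind to these data. Of 15 autophagy receptors, which tie cargo to LC3 and GABARAP, 11 were higher and 0 lower in Osi_Lin_EV than in DMSO_EV, 13 higher and 0 lower in Osi_cIGF1R than in DMSO_EV, and 9 higher and 1 lower in Osi_cIGF1R than in Osi_Lin_EV, with median log2 fold changes of 0.44, 0.92 and 0.60. Called higher were 73.3%, 86.7% and 60.0% of them, against 29.0%, 33.1% and 25.9% of all tested genes. Called lower were 0.0%, 0.0% and 6.67%, against 23.5%, 35.8% and 34.8%. Without RETREG1, which passed the filter only with the help of Osi_cIGF1R, where it was high, the counts were 10, 12 and 8 higher of 14. OPTN, a receptor for ubiquitinated cargo, had 72.7, 72.1 and 76.5 FPKM in Osi_cIGF1R, 15.8, 15.6 and 14.6 FPKM in Osi_Lin_EV and 8.25, 9.60 and 10.2 FPKM in DMSO_EV. The Osi_cIGF1R libraries stood 4.81-fold above Osi_Lin_EV and 7.89-fold above DMSO_EV on average (adjusted p = 3.1e-10 and 1.14e-11). CALCOCO1, a receptor for the endoplasmic reticulum, averaged 65.5 ± 1.59 FPKM in Osi_cIGF1R, 42.3 ± 4.37 FPKM in Osi_Lin_EV and 12.5 ± 0.829 FPKM in DMSO_EV. RETREG1 (FAM134B), another receptor of the endoplasmic reticulum, averaged 4.66 ± 0.631, 1.13 ± 0.197 and 0.298 ± 0.0724 FPKM in the same groups. CALCOCO2 (NDP52) was higher in Osi_cIGF1R than in Osi_Lin_EV, at 28.4 ± 1.08 against 12.3 ± 0.988 FPKM (adjusted p = 8.41e-07). CCPG1 was 2.63-fold higher in Osi_Lin_EV and 4.96-fold higher in Osi_cIGF1R than in DMSO_EV. STBD1 was 2.24-fold higher in Osi_Lin_EV than in DMSO_EV, and at 1.43-fold in Osi_cIGF1R was not called (adjusted p = 0.0613).

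Of 25 tested genes among 26 lysosomal targets of TFEB in the CLEAR network, 15 were higher and 1 lower in Osi_Lin_EV than in DMSO_EV, 20 higher and 1 lower in Osi_cIGF1R than in DMSO_EV, and 15 higher and 1 lower in Osi_cIGF1R than in Osi_Lin_EV, with medians of 0.39, 0.92 and 0.52. Called higher were 60.0%, 80.0% and 60.0%, against the same shares of all tested genes as for the receptors. Called lower were 4.0%, 4.0% and 4.0%, against 23.5%, 35.8% and 34.8%. Without GPNMB, which also needed Osi_cIGF1R to pass the filter, 14, 19 and 14 of 24 were higher. CTSF, the cathepsin whose promoter is shown above, had 34.3, 34.2 and 41.2 FPKM in Osi_cIGF1R, 18.8, 17.2 and 17.8 FPKM in Osi_Lin_EV and 3.59, 5.05 and 4.67 FPKM in DMSO_EV. It was 8.24-fold higher in Osi_cIGF1R (adjusted p = 1.23e-10) and 4.04-fold higher in Osi_Lin_EV (adjusted p = 2.98e-08) than in DMSO_EV, with no overlap. PSAP, the precursor of the saposins, averaged 692 ± 59.8 FPKM in Osi_cIGF1R, 270 ± 27.5 FPKM in Osi_Lin_EV and 168 ± 32.8 FPKM in DMSO_EV. CTSB, a cathepsin, averaged 104 ± 1.56, 42.8 ± 4.84 and 37.2 ± 6.54 FPKM in the same groups. GAA, the acid alpha-glucosidase, averaged 86.4 ± 3.17, 63.3 ± 4.84 and 31.6 ± 3.6 FPKM. GLA, the alpha-galactosidase, ran the other way, with 10.3 ± 2.0 FPKM in Osi_cIGF1R and 10.1 ± 0.543 FPKM in Osi_Lin_EV against 26.0 ± 0.836 FPKM in DMSO_EV.

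Of 26 tested genes among 30 of mTORC1, AMPK and the Rag GTPases, which set the activity of ULK1 and TFEB, 9 were higher and 3 lower in Osi_Lin_EV than in DMSO_EV, 11 higher and 5 lower in Osi_cIGF1R than in DMSO_EV, and 7 higher and 8 lower in Osi_cIGF1R than in Osi_Lin_EV. The higher shares of 34.6%, 42.3% and 26.9% were near the 29.0%, 33.1% and 25.9% of all tested genes. The counts of higher genes therefore say nothing particular about the list. The lower shares were 11.5%, 19.2% and 30.8%, against 23.5%, 35.8% and 34.8% of all tested genes. RRAGC, a Rag GTPase that binds TFEB, averaged 11.7 ± 1.41 FPKM in Osi_cIGF1R, 5.37 ± 0.188 FPKM in Osi_Lin_EV and 4.14 ± 0.596 FPKM in DMSO_EV, with no overlap. PRKAA1, a catalytic subunit of AMPK, averaged 23.1 ± 1.55 FPKM in Osi_cIGF1R and 16.9 ± 0.929 FPKM in Osi_Lin_EV. Both lay above the 11.1 ± 1.92 FPKM of DMSO_EV (adjusted p = 3.02e-06 and 0.000781). AKT1S1 (PRAS40), an mTORC1 subunit, fell to 32.2 ± 2.4 FPKM in Osi_cIGF1R and 50.5 ± 2.59 FPKM in Osi_Lin_EV, against 65.5 ± 5.38 FPKM in DMSO_EV. RHEB, the GTPase that activates mTORC1, averaged 22.9 ± 1.78 FPKM in Osi_cIGF1R and 22.0 ± 1.06 FPKM in Osi_Lin_EV. Both lay below the 37.1 ± 3.33 FPKM of DMSO_EV (adjusted p = 3.06e-05 and 3.14e-05). DEPTOR, an inhibitor of mTOR, averaged 1.81 ± 0.266 FPKM in Osi_cIGF1R against 0.501 ± 0.175 FPKM in Osi_Lin_EV, a difference that is no support since it passed the filter only through Osi_cIGF1R. CASTOR1 and RRAGB were 1.97-fold and 1.92-fold higher in Osi_Lin_EV than in DMSO_EV, and 1.21-fold and 1.48-fold higher in Osi_cIGF1R.

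**Figure D5:**
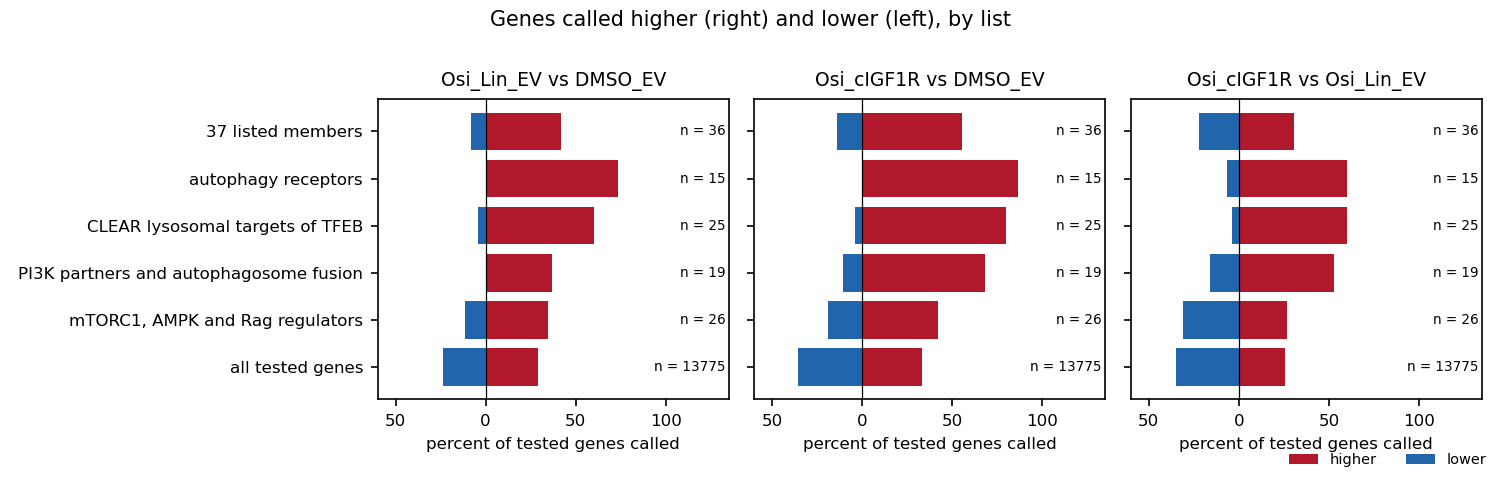
Percent of tested genes called higher (red, to the right) and lower (blue, to the left) for the members, 4 related lists and all tested genes, in 3 comparisons; n is the number of tested genes. Receptors and CLEAR genes are called higher more often than all tested genes, at 73.3% and 60.0% against 29.0% in Osi_Lin_EV against DMSO_EV, while the mTORC1, AMPK and Rag list is nearest to them.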

How the data were processed

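RNA-seq of H1975 cells gave 9 libraries in 3 groups, and the deposited table has 1 column per library, matched by name. The deposited file states no unit; its non-integer values, with library totals of 338034 to 474156, were read as FPKM computed by the authors. Per the submitters' processing notes, STAR, Bowtie2 2.1.0 and hg38 were among the tools and builds used, with no role named; counter, annotation, strand and filters were not given in the sources used here. One protocol shared by all samples names RNase R, which digests linear RNA, and whether it was used for these 9 is unclear. Low values gave no whole-read steps; depth is therefore unknown, and counting intervals were not made. FPKM is a share of each library, so abundant transcripts that change shift all others.

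The 13775 genes with at least 1 FPKM in at least 3 libraries entered limma 3.58.1 (trend, robust; R 4.3.3) as log2(FPKM + 1), in 1 model over all 9 libraries, with Benjamini-Hochberg adjustment over these genes and a threshold of 0.05. A fold change with a pseudocount of 1 understates the change of low genes. Shares of paralogues were compared by exact two-sided permutation tests. Per-library values are given for members called in any comparison without overlap and with an absolute log2 fold change of at least 0.5, and for the LC3 and GABARAP family and MiT/TFE genes; outside the members, the 3 called genes without overlap and with the largest change per list and comparison are named, except 1 gene that is not reported here. Members and lists were chosen with earlier results of these data known. Alternatives were other pseudocounts, filters, scalings, a fit without a trend, a replicate block, a fit to only the groups compared, a fold threshold and the omission of libraries. Promoters and positions are RefSeq's (GRCh38.p14).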

Additional observations from a re-analysis of the deposited data

How the results depend on the processing

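Of the members called, 14 of 18 in Osi_Lin_EV against DMSO_EV, 16 of 25 in Osi_cIGF1R against DMSO_EV and 11 of 19 in Osi_cIGF1R against Osi_Lin_EV were called in all 20 other settings, and no called member changed sign in any. With an absolute log2 fold change of at least 1 added, 4, 5 and 1 members and 1266, 3004 and 1510 genes were called. The replicate block, with numbers that did not pair the samples (correlations of deviations from -0.315 to 0.0358, and 1 of 9 best with its own number), gave 18, 23 and 17 members and 6838, 9204 and 7963 genes. The median log2 fold change of the members in Osi_cIGF1R against DMSO_EV was 0.371 with a filter at 5 FPKM, 0.373 with a pseudocount of 0.1 and 0.192 with a pseudocount of 5; in Osi_cIGF1R against Osi_Lin_EV it was 0.090 with that filter and 0.175 with median-of-ratios rescaling, which moved the median of all genes by 0.12. The sign of a role's median turned under that rescaling for ATG4 genes in Osi_Lin_EV against DMSO_EV (-0.03) and for PI3P genes in Osi_cIGF1R against Osi_Lin_EV (0.07). Without 1 library at a time, 15 to 19, 20 to 25 and 13 to 22 members and 6137 to 7775, 8516 to 9325 and 7130 to 8513 genes were called in the 3 comparisons, and the members' medians were 0.136 to 0.267, 0.235 to 0.399 and 0.009 to 0.116. Values that turned sign had not been called, and their ranges without 1 library were: ULK2 in Osi_Lin_EV against DMSO_EV (-0.098 to 0.066), TFE3 there (-0.011 to 0.154), and between Osi_cIGF1R and Osi_Lin_EV ATG9B (0.023 under median-of-ratios rescaling, -0.193 to 0.007 without 1 library), WDR45 (0.068 under that rescaling, -0.152 to 0.001 without 1 library), TFEB (-0.011 to 0.144) and the ATG9B share (-3.56 to 0.295 points). The cause was not tested. Depth limits cannot be given, since read depth is unknown.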

Other observations

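Of 19 tested genes among 21 PI3K partners and fusion factors, 7 were higher and 0 lower in Osi_Lin_EV than in DMSO_EV, 13 higher and 2 lower in Osi_cIGF1R than in DMSO_EV, and 10 higher and 3 lower in Osi_cIGF1R than in Osi_Lin_EV. The higher shares were 36.8%, 68.4% and 52.6%, against 29.0%, 33.1% and 25.9% of all tested genes, so that of the first comparison was near the background. The lower shares were 0.0%, 10.5% and 15.8%, against 23.5%, 35.8% and 34.8%. SH3GLB1 (Bif-1), a partner of UVRAG, averaged 11.8 ± 0.509 FPKM in Osi_cIGF1R, 7.42 ± 0.355 FPKM in Osi_Lin_EV and 4.78 ± 0.854 FPKM in DMSO_EV (SD, n = 3). STX17, the SNARE protein of autophagosomes that fuse with lysosomes, averaged 8.08 ± 1.54, 4.79 ± 0.32 and 3.79 ± 0.209 FPKM in the same groups. VAMP8, a lysosomal SNARE protein, averaged 197 ± 44.4, 140 ± 6.12 and 91.3 ± 2.08 FPKM. RUBCN (Rubicon), a negative regulator of the UVRAG complex, was 1.96-fold higher in Osi_cIGF1R than in Osi_Lin_EV, at 5.13 ± 0.553 against 2.62 ± 0.0919 FPKM. PLEKHM1 and VPS39, which tether autophagosomes to lysosomes, were 1.76-fold and 1.56-fold higher in Osi_Lin_EV than in DMSO_EV. In Osi_cIGF1R they were 1.69-fold and 1.87-fold higher than in DMSO_EV.

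Of 7 tested genes among other transcription regulators of autophagy genes, 4 were higher in Osi_Lin_EV than in DMSO_EV, 5 in Osi_cIGF1R than in DMSO_EV and 4 in Osi_cIGF1R than in Osi_Lin_EV, with 0 lower. The higher genes are 57.1%, 71.4% and 57.1% of a short list, against 29.0%, 33.1% and 25.9% of all tested genes. Lower were 23.5%, 35.8% and 34.8% of all tested genes. FOXO4, a factor held in the cytoplasm by AKT, averaged 12.8 ± 0.741 FPKM in Osi_cIGF1R, 5.24 ± 0.391 FPKM in Osi_Lin_EV and 2.83 ± 0.473 FPKM in DMSO_EV. FOXO3, of the same family, averaged 21.2 ± 3.9, 13.0 ± 1.05 and 7.60 ± 0.827 FPKM in the same groups. DDIT3 (CHOP), a stress-induced factor, averaged 20.1 ± 3.12, 8.45 ± 0.183 and 6.06 ± 1.72 FPKM. FOXO1 was 1.94-fold higher in Osi_cIGF1R than in Osi_Lin_EV. ZKSCAN3, known as a repressor of autophagy genes, was 2.18-fold higher in Osi_Lin_EV and 1.74-fold higher in Osi_cIGF1R than in DMSO_EV.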
